A study of Mus musculus with 19 samples.

Results

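The genes described here are the 10 sarcomere genes of fast skeletal muscle fibres: the fast myosin heavy chains Myh2, Myh1 and Myh4, the fast light chains Myl1 and Mylpf, the fast troponins Tnnt3, Tnni2 and Tnnc2, the tropomyosin Tpm1 and the alpha-actinin Actn3. They are a list of named genes, drawn up with earlier results of these data known and with no value in the rule, and each had at least 1 probe set annotated with its symbol alone. They stand among 12393 genes with such a probe set, of which 7436 were bright enough to be tested. All 10 passed that limit. Where a gene had several probe sets, the one with the highest mean over the 19 arrays stood for it.

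The samples were tibialis anterior muscles, a fast muscle of the lower leg, from mice of the 129/SVE background, with 1 array per sample. KO_Aged (4 arrays) were mice lacking desmin aged 12 to 14 months, KO_Adult (5 arrays) were mice lacking desmin aged 7 to 9 weeks, WT_Aged (5 arrays) were wild-type mice aged 12 to 14 months and WT_Adult (5 arrays) were wild-type mice aged 7 to 9 weeks. Every group, the wild-type controls included, had performed 50 eccentric contractions (the muscle is stretched while it contracts) 12 h before RNA isolation, and no group without contractions was analysed here. Separate animals per array are not stated in the labels, so each p-value reflects only how far these arrays scatter.

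A skeletal muscle fibre contracts through sarcomeres, in which thick filaments of myosin pull on thin filaments of actin, tropomyosin and the calcium-sensing troponin complex. Most of these proteins exist as separate fast and slow forms made from different genes, and the myosin heavy chain present defines the fibre type: Myh7 in slow type 1 fibres, Myh2 in type 2A, Myh1 in type 2X and Myh4 in type 2B. Mouse tibialis anterior is made mostly of type 2B and 2X fibres, with type 2A fibres fewer and slow fibres rare. Desmin is the intermediate filament that links neighbouring sarcomeres at their Z-discs.

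The labels held for the deleted gene. Des, which encodes desmin, had a deposited value of 350 ± 234 in KO_Aged, 521 ± 218 in KO_Adult, 11358 ± 796 in WT_Aged and 18391 ± 4248 in WT_Adult (SD, n = 4, 5, 5 and 5), with no overlap between KO and WT arrays. The 5 myofibre markers Ckm, Acta1, Mb, Pygm and Tcap were bright on every array, the dimmest value among them being 8791. Poly-A spike-in and 18S control probe sets gave signal on 8 arrays (all 5 WT_Aged and 3 of the 5 KO_Adult) and almost none on the other 11 (all KO_Aged, all WT_Adult and 2 KO_Adult). The spike-in dap had deposited values of 1184 to 3103 on the 8 arrays and 1 to 17.4 on the 11. Aged KO and aged WT arrays therefore lie on opposite sides of this split, as do aged and adult WT arrays, and results are also given with the split as a term in the model (the control term) where that changes a call. That term rests on the KO_Adult arrays, the only group on both sides. Replicates 2 and 3 of KO_Aged had Gapdh 3′ to 5′ ratios of 8.61 and 5.01, against at most 0.968 on every other array.

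The type 2A, 2X and 2B myosin genes lie next to each other in that order on chromosome 11, between the developmental myosins Myh3 and Myh8, in the RefSeq annotation of GRCm38.p6. The RefSeq promoter table held 7 of the 10 genes (not Actn3, Tnnt3 or Tnni2). The 3 myosin promoters are shown because these neighbouring genes behaved differently in the arrays. Each line gives the 250 bases before the annotated start on the plus strand of GRCm38.p6, and capitals mark the longest run of letters that all 3 share.
Myh2, chr11:67170777-67171026: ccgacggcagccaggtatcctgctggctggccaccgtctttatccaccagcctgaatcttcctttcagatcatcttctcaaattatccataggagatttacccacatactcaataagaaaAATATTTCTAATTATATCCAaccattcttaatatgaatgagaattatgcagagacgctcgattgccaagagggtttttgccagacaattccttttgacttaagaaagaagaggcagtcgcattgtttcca
Myh1, chr11:67199852-67200101: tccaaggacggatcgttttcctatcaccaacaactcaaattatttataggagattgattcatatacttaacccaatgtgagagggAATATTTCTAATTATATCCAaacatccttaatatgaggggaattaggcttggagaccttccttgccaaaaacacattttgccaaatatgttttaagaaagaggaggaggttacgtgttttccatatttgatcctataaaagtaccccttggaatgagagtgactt
Myh4, chr11:67237562-67237811: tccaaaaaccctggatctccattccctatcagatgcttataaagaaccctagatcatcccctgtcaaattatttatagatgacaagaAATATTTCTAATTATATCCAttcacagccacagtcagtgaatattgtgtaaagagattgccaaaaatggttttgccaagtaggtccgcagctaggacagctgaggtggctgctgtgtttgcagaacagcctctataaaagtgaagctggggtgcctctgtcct

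The shared run is 20 bases long and starts 130 bases before the start of Myh2, 165 before that of Myh1 and 163 before that of Myh4. It was searched for on both strands of all 32851 promoter windows of 300 bases (250 before to 50 after the start). It was found in 3, those of Myh2, Myh1 and Myh4, a share of 0.0091%. The run was defined from these 3 windows, so its presence in them was given in advance. The search shows only that no other window held it. The E-box CANNTG, whose reverse complement is the same pattern, had 3 matches in the Myh4 window and none in those of Myh2 and Myh1, while 72.3% of all windows held at least 1. TATAAA on either strand matched at 31 bases before the start of Myh4 and 32 before that of Myh1, where a TATA box usually lies; in the Myh2 window it matched only at 10 bases after the annotated start. It was found in 13.6% of all windows. The other TATAAA matches lay farther upstream, at 208 bases before the start of Myh1 and at 213 and 179 before that of Myh4. No E-box and TATAAA match shared bases in these windows. These are matches of letters and not measured binding sites.

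**Figure D1:**
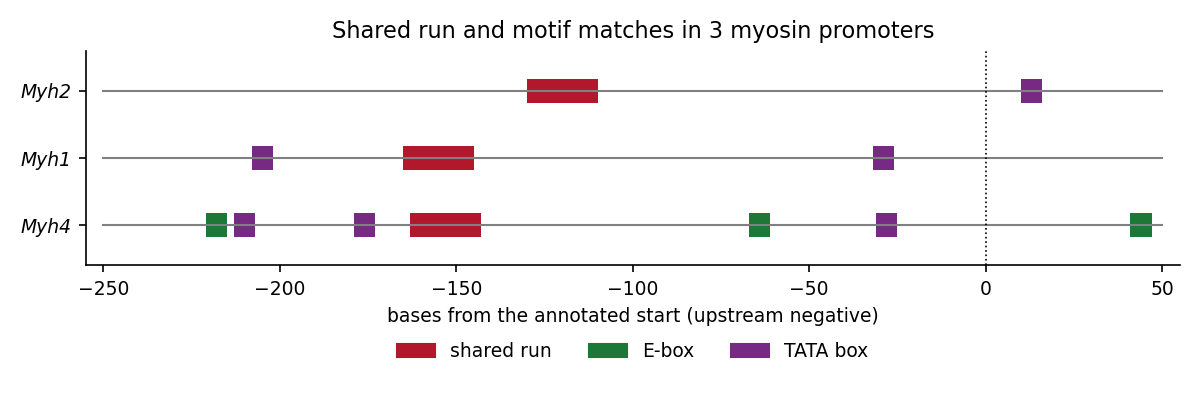
Promoter windows of Myh2, Myh1 and Myh4, from 250 bases before to 50 bases after the annotated start (dotted line), with the horizontal axis in bases from that start. Boxes mark the 20-base shared run, E-box matches and TATAAA matches; the shared run begins 130 bases before the start in Myh2 and 165 and 163 before it in Myh1 and Myh4.

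Among the fast myosins, Myh2 was the one that differed between groups. Its deposited intensity was 17828, 22032, 19474 and 21839 on the KO_Aged arrays. The KO_Adult arrays had 15114, 15416, 12748, 10706 and 10762, of which the last 3 carry the spike-in signal. The WT_Aged arrays had 8813, 9392, 11012, 3480 and 6009. The WT_Adult arrays had 14569, 14303, 9522, 25239 and 18546. The KO_Aged arrays were thus all above every KO_Adult and every WT_Aged array, while the WT_Adult arrays overlapped each other group. The SD was largest in WT_Adult on the deposited scale, and largest in WT_Aged on the normalized log2 scale, at 0.67 in WT_Aged and 0.43 in WT_Adult. KO_Aged replicate 4 and WT_Aged replicates 4 and 5 have title codes that begin alike, with no meaning given in the labels. Among these 3 arrays Myh2 was 21839 in KO_Aged, against 3480 and 6009 in WT_Aged, the lowest values of that group. The KO_Aged array is without spike-in signal and the WT_Aged arrays carry it, so the control split is not held constant among them.

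The 2X myosin Myh1 showed no such order. Its values were 21847, 23223, 20957 and 24425 in KO_Aged, 25028, 28362, 27924, 22711 and 28797 in KO_Adult, 20637, 25748, 23391, 22123 and 24706 in WT_Aged, and 20207, 22168, 29476, 32683 and 37616 in WT_Adult. The 2B myosin Myh4 had 25036, 24057, 25091 and 29289 in KO_Aged, 21069, 24822, 25249, 23864 and 28046 in KO_Adult, 22149, 26050, 23503, 20481 and 24711 in WT_Aged, and 21523, 20174, 29843, 32570 and 40520 in WT_Adult. For both genes all 4 groups overlapped on this scale, except that the aged KO arrays of Myh1 were all below 4 of the 5 KO_Adult arrays. The main Myh1 probe set is of the _x_at kind, which can also bind transcripts of similar sequence, so signal from its near-identical neighbours cannot be told apart from its own. A second bright Myh1 probe set gave the same sign as the main one in 4 of the 5 contrasts, and the third was dim, with group means from 32.2 to 95.7.

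**Figure D2:**
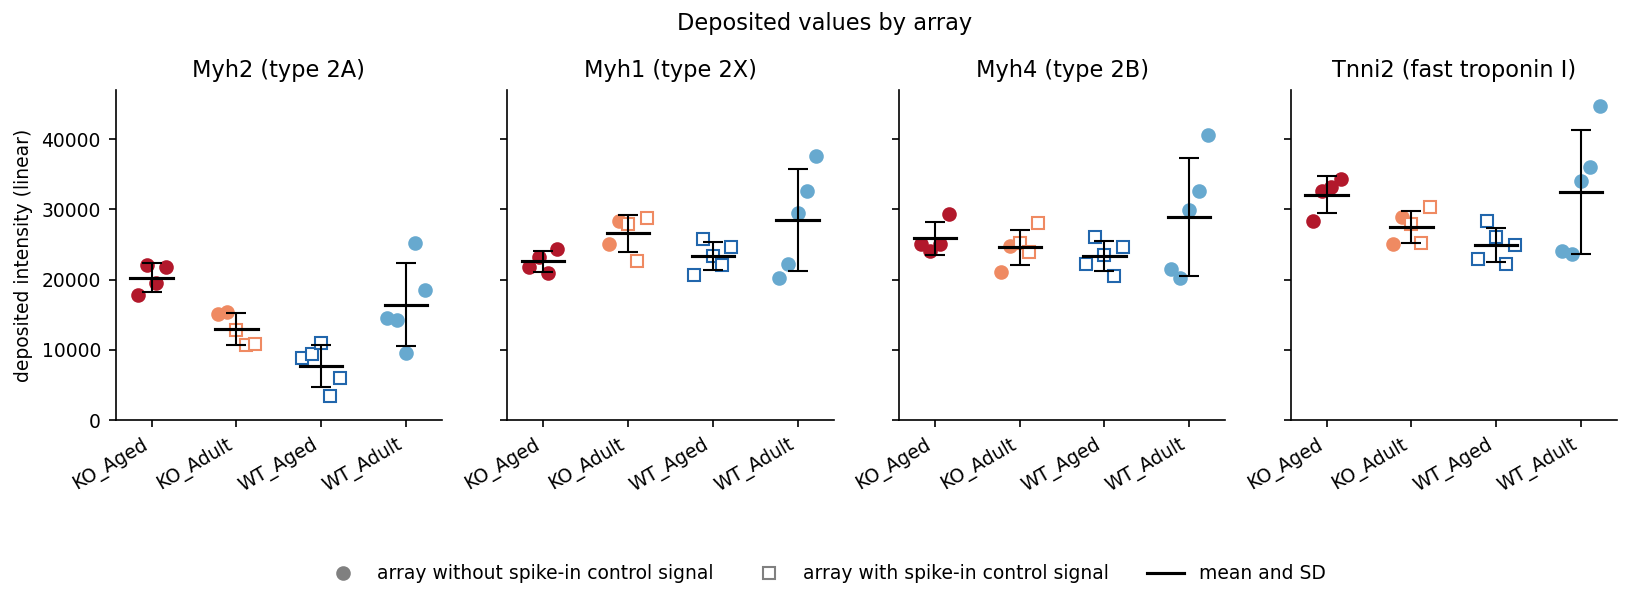
Deposited linear intensity of Myh2, Myh1, Myh4 and Tnni2 on every array, by group, with bars for the mean and SD; open squares are arrays with spike-in control signal. The 4 KO_Aged values of Myh2, from 17828 to 22032, lie above all KO_Adult and WT_Aged values.

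The other 9 genes were among the brightest probe sets of the arrays. They ranked between 1 and 102 among all probe sets on every array, whereas Myh2 ranked between 41 and 1116. Their deposited values ran from 20516 to 34255 in KO_Aged, from 18085 to 34126 in KO_Adult, from 16039 to 32223 in WT_Aged and from 17107 to 44696 in WT_Adult. The coefficient of variation of a gene within a group was 4.43 to 9.01% in KO_Aged, 5.21 to 11.4% in KO_Adult, 8.22 to 12.1% in WT_Aged and 17.1 to 31.1% in WT_Adult. That wider spread was shared: all 9 genes were dimmer on WT_Adult replicates 1 and 2 than on replicates 3, 4 and 5, whose title codes begin alike, with no meaning given in the labels. Quantile normalization removes such array-wide differences, but it also gives the same value to the same rank on every array, so for these genes a difference can only be a change of rank near the top. After it, the SD of a gene within a group was 0.01 to 0.21 on the log2 scale.

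Aged desmin-null muscle was compared with aged wild-type muscle. Myh2 averaged 20293 ± 2013 in KO_Aged (SD, n = 4) and 7741 ± 2989 in WT_Aged (SD, n = 5). It was 2.81-fold higher in KO_Aged on the scale of log2(value + 4.76), a log2 difference of 1.49 (SE 0.27, 95% confidence interval 0.92 to 2.06, limma's moderated test with a Benjamini-Hochberg adjusted p of 0.000648 over the 7436 genes). Every KO_Aged array was above every WT_Aged array. It was the only one of the 10 genes called at an adjusted p under 0.05, in a comparison that called 29.4% of all genes tested, so a share of 1 in 10 is below the background. The 2 groups lie on opposite sides of the control split. With the control term the difference was 1.20 (SE 0.46), still higher in KO_Aged, with an adjusted p of 0.122. That model called 5.45% of genes and none of the 10. Without the 2 KO_Aged arrays with high Gapdh 3′ to 5′ ratios the difference was 1.51 (adjusted p = 0.0105).

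The remaining fast genes differed little in that comparison. After quantile normalization their log2 differences lay between -0.17 (Myh1) and 0.20 (Tnni2), and the widest of their 95% intervals reached -0.39 and 0.40. Changes beyond 1.31-fold down or 1.32-fold up lie outside all 9 intervals on that scale only, where a difference is a change of rank near the top. Larger changes of RNA are not excluded. The 9 differences ran from -0.10 to 0.31 with median-centred arrays and from -0.04 to 0.37 without normalization, the highest being Tnni2 (SE 0.18 and 0.17). The median difference over all 10 genes was 0.04, beside 0.08 over all genes tested. The fast light chains Myl1 (0.04) and Mylpf (-0.04), the tropomyosin-binding troponin Tnnt3 (0.04), the calcium-binding troponin Tnnc2 (0.10), the tropomyosin Tpm1 (0.07), the Z-disc protein Actn3 (0.00) and Myh4 (0.00) had adjusted p-values from 0.565 to 0.996. Tnni2, the inhibitory subunit of fast troponin, was 32102 ± 2589 in KO_Aged and 24930 ± 2450 in WT_Aged (SD, n = 4 and 5), with all KO_Aged arrays above all WT_Aged arrays and an adjusted p of 0.120. Including Myh1 and Myh2, the arrays of 3 of the 10 genes did not overlap between these groups, as for 31.4% of all genes. Tnni2 and Myh1 passed only when the prior variance was allowed to follow the mean intensity, a fit that gives bright genes a smaller error (adjusted p = 0.00177 for Tnni2 and 0.0451 for Myh1); that setting was chosen after seeing the data, and it called 29.9% of all genes. The second bright Tnni2 probe set had a difference of the other sign, -0.16 (adjusted p = 0.569).

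Aged wild-type muscle was compared with adult wild-type muscle. Myh2 averaged 7741 ± 2989 in WT_Aged and 16436 ± 5869 in WT_Adult (SD, n = 5 each), a log2 difference of -1.02 (SE 0.26, 95% interval -1.56 to -0.48, limma adjusted p = 0.00551). It fell 2.03-fold. The groups overlapped in 1 place: the lowest WT_Adult array, at 9522, was below the highest WT_Aged array, at 11012. Again it was the only member of the set called, where 38.9% of all genes were. These groups too lie on opposite sides of the control split, and with the control term the difference was -0.73 (SE 0.45, adjusted p = 0.462), in a model that called 0.0941% of genes. The lowest WT_Aged array, at 3480, set part of the size: without it the difference was -0.76, the smallest over all arrays left out in turn, and adjusted p-values over those reached at most 0.0158. The other 9 genes lay between -0.15 (Actn3) and 0.11 (Myl1), with intervals reaching -0.37 and 0.30. Myl1 was the only gene of the set whose arrays did not overlap, in a comparison where 29.3% of genes did not; it was called with the intensity-dependent prior (0.11, adjusted p = 0.0481), which called 39.1% of all genes. A second Tpm1 probe set, far dimmer than the main one, had 269 ± 34.1 in WT_Aged and 424 ± 62.8 in WT_Adult (SD, n = 5 each) and fell by 0.57 on the log2 scale when every probe set was tested (limma adjusted p = 0.0209), while the main probe set had a difference of -0.03.

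Adult desmin-null muscle was compared with adult wild-type muscle. None of the 10 genes was called, where 16.6% of all genes were; limma gave none of them an unadjusted p under 0.05 either, and the fit with the intensity-dependent prior called Myl1 (0.13, adjusted p = 0.0371) and 16.7% of all genes. With the control term none of the 10 and 6.67% of all genes were called. Myh2 averaged 12949 ± 2271 in KO_Adult and 16436 ± 5869 in WT_Adult (SD, n = 5 each), a log2 difference of -0.23 (SE 0.26, 95% interval -0.77 to 0.31, adjusted p = 0.554). The interval leaves room for a change of either sign. On the arrays without spike-in signal, 2 KO_Adult against 5 WT_Adult, the difference was -0.06 (SE 0.30), and 1.01% of all genes were called. The other 9 genes lay between -0.14 (Actn3) and 0.13 (Myl1). Myl1, the essential light chain, had 22303 to 30008 in KO_Adult and 21046 to 37177 in WT_Adult before normalization, and a normalized log2 mean of 14.72 ± 0.04 in KO_Adult and 14.59 ± 0.02 in WT_Adult (SD, n = 5 each).

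Aged desmin-null muscle was also compared with adult desmin-null muscle. None of the 10 was called, where 7.32% of all genes were, and 2 had an unadjusted p under 0.05, Myh2 and Myh1. Myh2 averaged 20293 ± 2013 in KO_Aged and 12949 ± 2271 in KO_Adult (SD, n = 4 and 5), a log2 difference of 0.70 (SE 0.27, adjusted p = 0.123), and its arrays did not overlap. Inside the arrays without spike-in signal, 4 KO_Aged against 2 KO_Adult, it was 0.53 (SE 0.19, adjusted p = 0.159) with arrays that again did not overlap, in a fit that called 0.0134% of all genes. On the arrays with that signal, 3 KO_Adult against 5 WT_Aged, it was 0.67 (SE 0.34, adjusted p = 0.193), the arrays overlapped, and 16.4% of all genes were called. With the control term over all arrays 9.99% of genes and none of the 10 were called in KO_Aged against KO_Adult. Myh1 had the opposite sign, -0.24 (SE 0.11, adjusted p = 0.169), at 22613 ± 1526 in KO_Aged and 26564 ± 2611 in KO_Adult (SD, n = 4 and 5). In this comparison 4 of the 10 genes did not overlap after normalization (Myh2, Myh1, Mylpf and Tnni2), beside 8.15% of all genes. Myh1 and Tnni2 were called with the intensity-dependent prior (adjusted p = 0.0230 and 0.0310), which called 7.95% of all genes, and Myh1 also with that prior and the control term together (-0.31, adjusted p = 0.0223), a fit that called 10.6% of all genes. The sign of the Myh1 difference was the same with median-centred arrays (-0.37) and without normalization (-0.23).

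**Figure D3:**
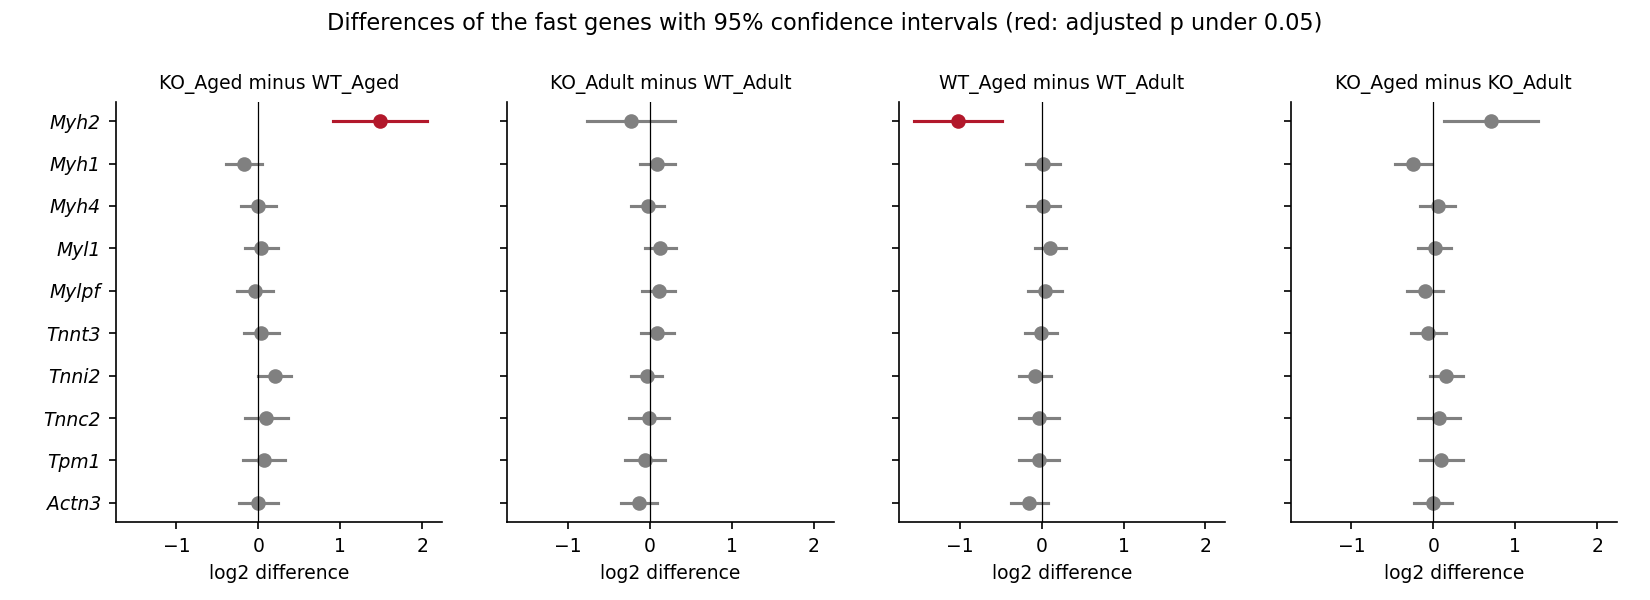
Log2 differences of the 10 genes in 4 comparisons, with 95% confidence intervals from the model over all 19 arrays; red marks an adjusted p under 0.05. Myh2 is called in KO_Aged minus WT_Aged (1.49) and in WT_Aged minus WT_Adult (-1.02), and the other 9 genes stay between -0.24 and 0.20.

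The genotype by age interaction, the aged KO to WT difference minus the adult one, was 1.72 for Myh2 (SE 0.38, 95% interval 0.94 to 2.51, limma adjusted p = 0.00343). Myh2 was the only one of the 10 called, where 25.1% of all genes were. The other 9 lay between -0.26 (Myh1) and 0.24 (Tnni2); both of these were called with the intensity-dependent prior (adjusted p = 0.0319 and 0.00690), which called 25.6% of all genes. The Myh1 value was 0.02 without normalization. The Myh2 interaction was 1.26 with the control term (SE 0.70, adjusted p = 0.358), in a model that called 0.0269% of genes.

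The small differences of the 9 bright genes moved with the scaling of the arrays. In aged against adult WT, 4 of the 9 had a positive difference after quantile normalization, 0 after median centring and 0 without normalization, where Actn3 was called at -0.39 (adjusted p = 0.0347) beside 39.0% of all genes. In adult KO against WT, 4 of the 9 were positive after quantile normalization, 7 after median centring and 0 without normalization. The median difference over all genes in that comparison was 0.04, 0.19 and -0.05 under the 3 scalings, and of all called genes 43.4%, 70.8% and 29.7% were higher in KO_Adult. Myh2 was 1.49, 1.44 and 1.49 under the same 3 in aged KO against WT, and -0.23, -0.04 and -0.29 in adult KO against WT, where it was not called.

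A ratio between 2 myosin probe sets within an array sets aside a difference in overall scale between arrays. It shows unequal change and not which isoform is more abundant. The ratios here are of quantile-normalized values, so they also depend on how that step reshapes values near the top of an array. On deposited values KO_Aged replicate 1 had 17828 for Myh2 and 25036 for Myh4, and KO_Adult replicate 1 had 15114 and 21069. These 2 ratios are alike, so the separation of the 2 groups given below holds for normalized values. After quantile normalization the log2 ratio of Myh2 over Myh4 was -0.39, -0.26, -0.38 and -0.30 on the KO_Aged arrays. It was -0.65, -0.82, -0.96, -1.23 and -1.25 on the KO_Adult arrays. It was -1.47, -1.45, -1.18, -2.81 and -2.18 on the WT_Aged arrays, and -0.80, -0.70, -1.40, -0.31 and -0.68 on the WT_Adult arrays. KO_Aged was again the highest and the tightest group, with a mean of -0.33 ± 0.06 against -1.82 ± 0.67 in WT_Aged (SD, n = 4 and 5).

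The Myh2 to Myh4 ratio was 1.49 higher on the log2 scale in KO_Aged than in WT_Aged, 0.65 higher in KO_Aged than in KO_Adult, and 1.04 lower in WT_Aged than in WT_Adult, each with a 2-sided exact permutation p of 0.0159 (adjusted p = 0.0238 over 12 ratio tests). For 4 arrays against 5 that is the smallest p the design allows; for 5 against 5 it is 0.00794, and the WT groups overlapped. In KO_Adult against WT_Adult the difference was -0.21 (exact permutation p = 0.381, adjusted p = 0.416). None of the 12 ratio tests passed the adjusted threshold without normalization, where 7 had an unadjusted exact permutation p under 0.05, or when any 1 KO_Aged array was left out, where 8 had. The Myh2 to Myh1 ratio gave the same calls, with differences of 1.66, 0.94 and -1.04 in these 3 comparisons. The Myh1 to Myh4 ratio was -0.17 ± 0.06 in KO_Aged, 0.12 ± 0.15 in KO_Adult, 0.00 ± 0.09 in WT_Aged and 0.00 ± 0.15 in WT_Adult (SD, n = 4, 5, 5 and 5). It was lower in KO_Aged than in WT_Aged by a log2 difference of -0.17 and than in KO_Adult by -0.30. Each had no overlap of normalized ratios and an exact permutation p of 0.0159 (adjusted p = 0.0238). Averaging all probe sets of a gene turned the first of these to 0.24 (exact permutation, adjusted p = 0.495); that average takes in the dim Myh1 probe set.

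Where spike-in signal is held constant, the ratio tests have few arrays. Without the signal, 4 KO_Aged against 2 KO_Adult arrays gave 0.40 for Myh2 over Myh4, -0.43 for Myh1 over Myh4 and 0.84 for Myh2 over Myh1. Each had no overlap of normalized ratios and an exact permutation p of 0.133, the smallest this split allows. With the signal, 3 KO_Adult against 5 WT_Aged arrays gave 0.67 for Myh2 over Myh4 with overlapping arrays (exact permutation p = 0.107). No aged KO and aged WT arrays share a side, so for that pair the split and the genotype cannot be told apart except through the control term.

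**Figure D4:**
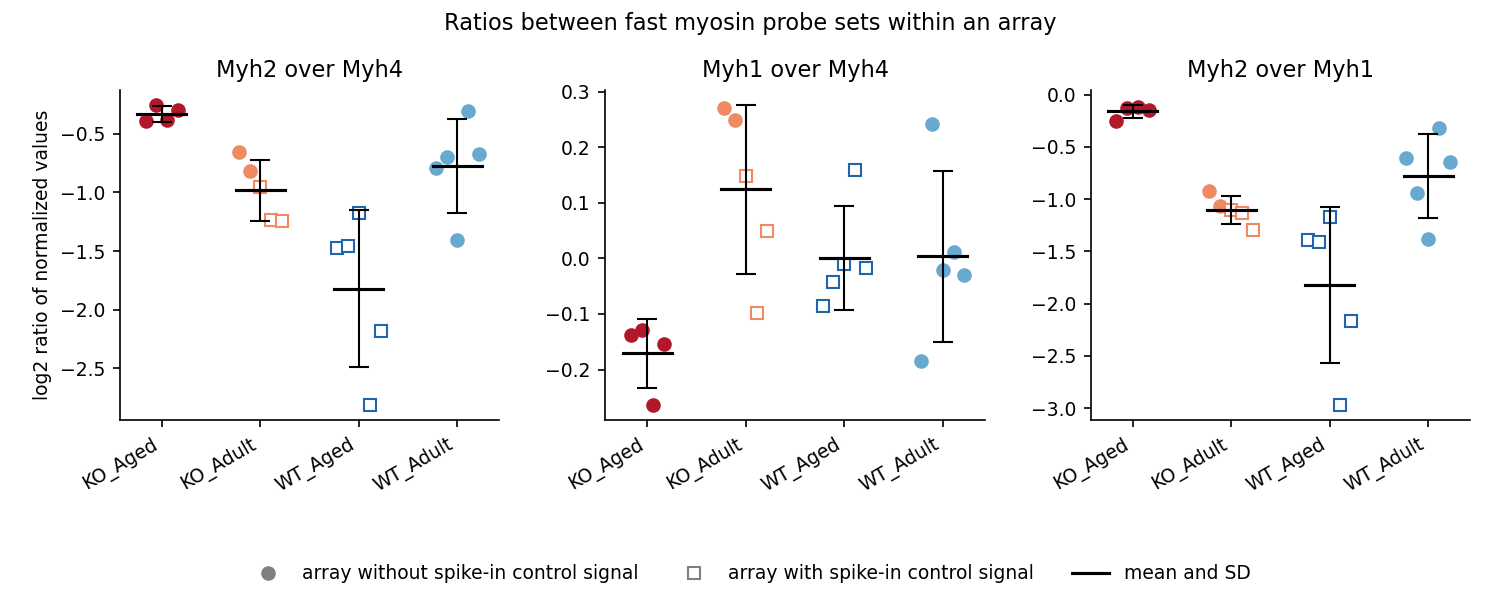
Log2 ratios of normalized values between fast myosin probe sets on each array, with the mean and SD per group; open squares are arrays with spike-in control signal. For Myh2 over Myh4 the 4 KO_Aged arrays lie between -0.39 and -0.26, above all KO_Adult and WT_Aged arrays; 0 on the vertical axis does not mean equal amounts of the 2 transcripts.

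The slow counterparts of these genes were set beside them. The list of slow or slow-enriched genes also holds Actn2, an alpha-actinin of all fibres. Of its 11 genes tested, 9 were higher, Actn2 among them, and none lower in KO_Aged than in WT_Aged, where 29.4% of all genes were called. The median log2 difference of the 11 was 2.77, beside 0.04 for the 10 fast genes and 0.08 for all genes. The 3 with the smallest p were the Z-disc protein gene Myoz2 (2.77, SE 0.25), the slow calcium pump gene Atp2a2 (2.36, SE 0.27) and the slow troponin T gene Tnnt1 (4.17, SE 0.49), with limma adjusted p-values up to 1.37e-05. The Atp2a2 value is that of its main probe set. When every probe set was tested, its others rose unequally, by 2.87, 0.64 and 0.19, and only the first of these was called. The direct partners of the fast genes were singled out for that pairing, after their values were seen. Slow troponin I, Tnni1, was 1288 ± 674 in KO_Aged and 118 ± 82.0 in WT_Aged (SD, n = 4 and 5), a difference of 3.39 where its fast form Tnni2 had 0.20. Slow troponin C, Tnnc1, had 3.30 where Tnnc2 had 0.10, and the slow regulatory light chain Myl2 had 4.37 where Mylpf had -0.04. The slow heavy chain Myh7 was 1783 ± 1006 in KO_Aged and 274 ± 368 in WT_Aged (SD, n = 4 and 5), a difference of 3.51 (SE 0.90). Myl3 (-0.81) was not called, nor was the main probe set of Tpm3, the slow tropomyosin (-0.41). The Tpm3 probe sets disagreed: when every probe set was tested, 2 of its 4 others rose, by 2.97 (2383 ± 1100 in KO_Aged and 288 ± 124 in WT_Aged, SD, n = 4 and 5) and by 2.36, with limma adjusted p-values up to 0.000829. The alpha-actinin Actn2, present in all fibres, rose by 1.09 (SE 0.15). Under the control term, which called 5.45% of all genes, 4 of the 11 were called higher: Actn2, Atp2a2, Myoz2 and Tnnt1. In a bulk sample, fewer fibres of a type and less of its RNA per fibre cannot be told apart.

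In KO_Adult against WT_Adult, where 16.6% of all genes were called, the same 11 genes gave 3 higher and 1 lower (Myoz2 0.86, Tnnt1 1.58 and Casq2 0.79 higher, Myl3 -1.62). In WT_Aged against WT_Adult, where 38.9% of all genes were called, 0 were higher and 2 lower. These were Myoz2, by -1.68, and Actn2, at 7186 ± 1344 in WT_Aged and 15002 ± 2139 in WT_Adult (SD, n = 5 each). In KO_Aged against KO_Adult, where 7.32% of all genes were called, 5 were higher and 0 lower (among them Atp2a2 1.80, Myl2 3.27 and Tnnt1 1.93). Under the control term these counts were 2 higher and 0 lower (Myl3 and Tnnt1 lost), 0 and 0, and 1 higher and 0 lower (Atp2a2). That model called 6.67%, 0.0941% and 9.99% of all genes in the same order. Tpm3 in aged against adult WT had 0.55 (adjusted p = 0.0528). Neither direction was called for Myh7 outside the aged KO to WT comparison.

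**Figure D5:**
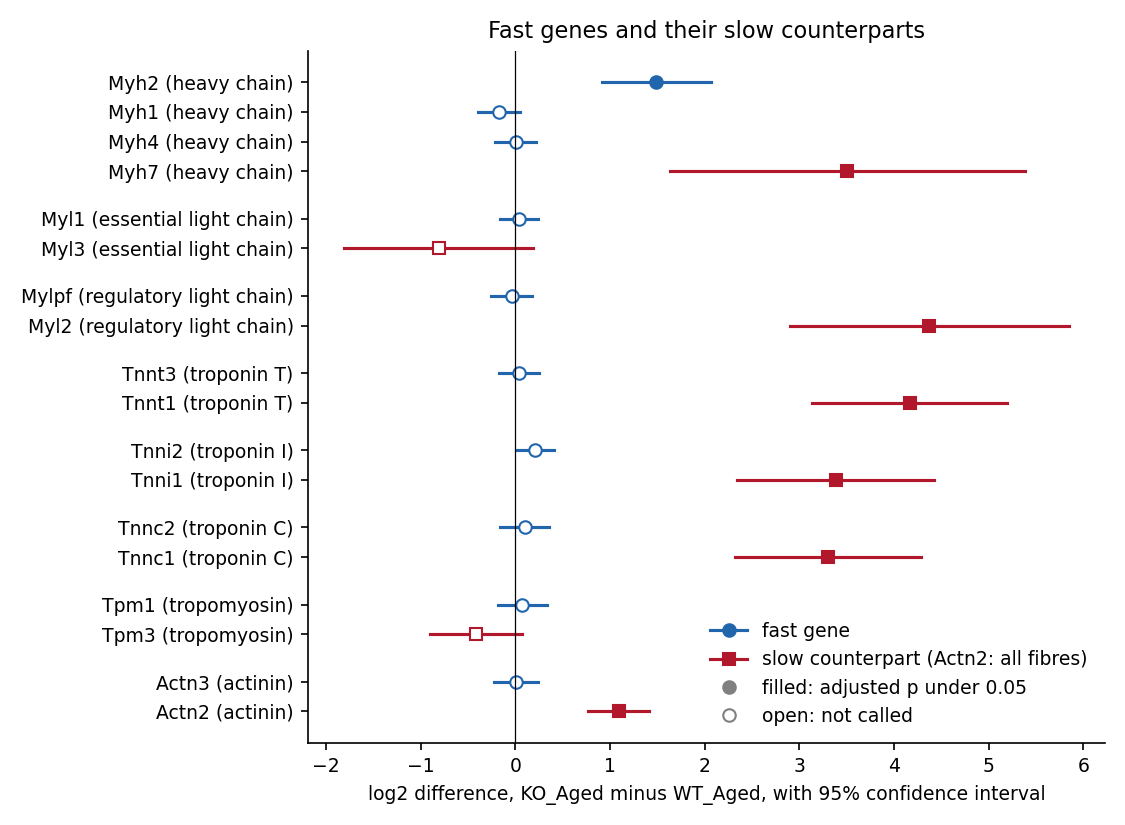
Log2 differences, KO_Aged minus WT_Aged, of the 10 fast genes (blue circles) and of their slow or shared counterparts (red squares), each by its main probe set, paired by protein and drawn with 95% confidence intervals; filled symbols have an adjusted p under 0.05. Myh2 is the only filled fast gene, at 1.49, while the slow troponins and the light chain Myl2 lie between 3.30 and 4.37.

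Other genes of fast fibres behaved in part like the bright fast genes and in part not. Of 8 tested, covering calcium handling, Z-disc and kinase genes, 1 was called in KO_Aged against WT_Aged, where 29.4% of all genes were called. It was the fast calcium pump gene Atp2a1 at 0.48 (SE 0.11, limma adjusted p = 0.00406). The calcium store gene Casq1 had 0.31 (adjusted p = 0.0547) and the transcription factor gene Sox6 had -0.53 (adjusted p = 0.0849). In WT_Aged against WT_Adult 3 of the 8 fell, a share close to the 38.9% of all genes called there: Mylk2, the kinase of the myosin regulatory light chain, at -1.12, Casq1 at -0.51 and Atp2a1 at -0.31. In KO_Adult against WT_Adult 1 fell, Mylk2, at 3424 ± 778 in KO_Adult and 6951 ± 1264 in WT_Adult (SD, n = 5 each), a log2 difference of -1.08 (adjusted p = 0.000857) that was -0.88 with the control term (adjusted p = 0.0332). Casq1 (-0.25) and Myom2 (0.30) were not called there. The Atp2a1 call in aged KO against WT (0.31 with the control term, adjusted p = 0.285) and all 3 falls in aged against adult WT were lost with that term. None was called in KO_Aged against KO_Adult, where limma gave 1 of the 8, Atp2a1, an unadjusted p under 0.05 (0.29). There Myom2 had -0.29 and the main probe set of Ppp3ca 0.66. The other Ppp3ca probe sets had -0.14 and 0.11, neither of them called.

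Sarcomere genes used in both fast and slow fibres were also examined. Of 12 tested, 3 rose in KO_Aged against WT_Aged, where 29.4% of all genes were called: Ldb3, a Z-disc gene, by 0.84, Tmod4, a thin filament capping gene, by 0.67, and Smyd1, a methyltransferase gene of sarcomere assembly, by 0.78. In WT_Aged against WT_Adult 4 fell, where 38.9% of all genes were called, among them Ldb3 (-0.80), Smyd1 (-1.44) and Tmod4 (-0.40). In KO_Adult against WT_Adult 1 fell, Ldb3 (-0.44), and Capzb (-0.24) and Smyd1 (-0.53) were not called. In KO_Aged against KO_Adult 0 were called, with an unadjusted p under 0.05 for 1, Ldb3 (0.48), and values of 0.27 for Acta1 and -0.18 for Myot. The Ldb3 values are those of its main probe set: in each comparison both its other probe sets had the opposite sign, with -0.01 and -0.99 in aged KO against WT and 0.28 and 0.40 in adult KO against WT, none of them called. Of the other 2 Smyd1 probe sets, the brighter shared the sign of the main one, with 1.27 in aged KO against WT (limma adjusted p = 0.125), and the dimmest had -1.49 there (limma adjusted p = 0.0395). Tpm2 is named because its probe sets disagreed. Its main one, of the _x_at kind, was not called, with 13592.5 to 17361 in KO_Aged and 13309 to 17675 in WT_Aged. Its other probe sets were all higher on every KO_Aged than on every WT_Aged array, 1 of them at 9240 to 12330 against 1920 to 2352. The values of that probe set also followed the control split. The KO_Adult arrays had 10786 and 8535 without spike-in signal, and 3427, 2703 and 4513 with it. The WT_Adult arrays, all without the signal, had 10443 to 17646. The counts here rest on main probe sets. None of the 12 was called with the control term in any of these comparisons.

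Of the developmental myosins on either side of the fast cluster, Myh3 was called between genotypes at both ages and Myh8 in adult muscle only. Myh3, the embryonic myosin, was 268 ± 87.2 in KO_Aged and 73.0 ± 28.8 in WT_Aged (SD, n = 4 and 5), a log2 difference of 1.73 (SE 0.31, limma adjusted p = 0.000467), and 2.27 with the control term (adjusted p = 0.0176). It was 163 ± 42.2 in KO_Adult and 75.5 ± 30.3 in WT_Adult (SD, n = 5 each), a difference of 1.32 (adjusted p = 0.00480). Myh8, the perinatal myosin, was called only in KO_Adult against WT_Adult (1.28, adjusted p = 0.00363), with 0.45 in the aged comparison. In the adult comparison the control term left Myh8 called (1.46, adjusted p = 0.0234), while Myh3 had an adjusted p of 0.113. Whether the 2 ages differ was tested by the interaction, which called neither gene (Myh3 0.41, adjusted p = 0.490; Myh8 -0.83, adjusted p = 0.128). Neither gene was called between ages within a genotype: Myh8 had 0.47 in WT and -0.35 in KO, and Myh3 had 0.15 and 0.56. The light chain Myl4 was called in no comparison, at 0.82 in aged KO against WT and 0.88 in aged against adult KO.

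Markers of other cells moved between the same groups. Of all genes, 29.4% were called in KO_Aged against WT_Aged and 38.9% in WT_Aged against WT_Adult. The shares were 16.6% in KO_Adult against WT_Adult and 7.32% in KO_Aged against KO_Adult. With the control term they were 5.45%, 0.0941%, 6.67% and 9.99% in the same order. Of 8 endothelial markers 4 were lower and 1 higher in KO_Aged than in WT_Aged, and their summed deposited level was 2511 to 3221 in KO_Aged and 3459 to 4473 in WT_Aged. Of 6 fibroblast markers 2 were higher, with sums of 20695 to 29892 in KO_Aged and 10079 to 17784 in WT_Aged. None of 4 neutrophil or 6 macrophage markers tested was called there, with sums over all 5 listed neutrophil genes of 6885 to 12662 in KO_Aged and 2404.5 to 13044 in WT_Aged, and over all 7 macrophage genes of 5002.5 to 10455.5 in KO_Aged and 2493 to 10904 in WT_Aged. In WT_Aged against WT_Adult all 4 neutrophil markers were higher, with sums of 2404.5 to 13044 in WT_Aged and 463 to 1663 in WT_Adult, 2 of 6 macrophage markers were higher, and 3 of 8 endothelial and 3 of 6 fibroblast markers were lower. In KO_Adult against WT_Adult 7 of 8 endothelial markers were lower, with sums of 2328 to 2583 in KO_Adult and 4987 to 6758 in WT_Adult, and 1 of 6 fibroblast markers was lower. In KO_Aged against KO_Adult 2 of 4 neutrophil markers and 1 of 6 macrophage markers were higher. The control term left 2 endothelial markers lower and 0 fibroblast markers called in aged KO against WT, 6 endothelial markers lower and 0 fibroblast markers called in adult KO against WT, 1 neutrophil and 1 macrophage marker higher in aged against adult KO, and 0 of these lists' markers called in aged against adult WT. The 5 myofibre markers had sums of 109534 to 124217 in KO_Aged and 79505 to 102716 in WT_Aged. Of them 1 was higher in that comparison and 1 in KO_Aged against KO_Adult. In KO_Adult against WT_Adult and in WT_Aged against WT_Adult 1 was lower. None of the 5 was called with the control term. The part of all these markers in the Myh2 differences was not tested.

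Over the 19 arrays, which include the group differences, the genes whose normalized values were most like those of Myh2 were Cap2 (Pearson r = 0.842), Tcea1 (0.842) and Got1 (0.825). For Myh1 they were Atp5pb (0.782), Thrap3 (0.775) and Oaz1 (0.736), and for Myh4 they were Cmya5 (0.807), Sltm (0.803) and Ptp4a2 (0.784). No fast myosin was among the 3 most like another: Myh1 and Myh4 had r = -0.42, Myh2 and Myh1 had -0.41, and Myh2 and Myh4 had 0.03. Among the 10 genes the closest pair was Tnnc2 and Tpm1 (0.85, and 0.86 after subtracting group means). Myh2 and Tnni2 had 0.69 over all arrays and 0.03 within groups. All values of an array share its RNA and its hybridization, and these correlations are a description.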

How the data were processed

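Gene expression was measured in 19 mouse tibialis anterior samples, 1 array each; biotinylated cRNA was prepared from total RNA for Affymetrix arrays, per the labels' protocols. The deposited file gives the authors' linear intensity for each probe set on each array. Per the submitters' processing notes these came from MAS5, whose version and scaling are not given in the sources used here.

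Of the probe sets 64 were controls; 20380 had 1 gene symbol in the platform annotation, 691 several and 1619 none, and only the first kind was named. Values were taken as log2(value + 4.76), the pseudocount being the 10th percentile of all values, and quantile normalized, because the arrays' median log2 values spanned 0.63, above the limit of 0.5. The upper 60% of genes by mean (7436) were fitted together, the 4 group means being the coefficients (lmFit and eBayes of limma 3.58.1, R 4.3.3), and p-values were Benjamini-Hochberg adjusted over all of them; called means an adjusted p under 0.05. The model was tested on simulated data. Ratios between myosins were compared by exact permutation over arrays (scipy 1.17.1), adjusted over 12 tests. An array was put on the side with spike-in signal where dap was above 500. Promoters are RefSeq's, of GRCm38.p6. Python 3.11.15, numpy 2.4.6, pandas 2.3.3 and matplotlib 3.10.9 were also used.

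The text names all 10 genes, Des, the 3 genes with the smallest p from each other list in a comparison, and the 3 genes most like each fast myosin; exceptions are marked. The members and the lists were chosen with earlier results of these data known. Replicate numbers follow accession order and pair no samples. The number of arrays limits the precision.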

Additional observations from a re-analysis of the deposited data

Results flagged for a closer look

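By the interaction term the difference between KO and WT depended on age for 13 of the genes named, in a test that called 25.1% of all genes. Of the 10 fast sarcomere genes 1 was called, Myh2 (1.72). Of 8 other fast fibre genes 3 were called, Atp2a1 (0.61), Casq1 (0.56) and Mylk2 (0.89). The slow list gave 7 of 11: Myoz2 (1.90), Actn2 (1.15), Myl2 (4.68), Atp2a2 (1.65), Tnnt1 (2.59), Tnni1 (2.57) and Tnnc1 (2.37). Of 12 shared sarcomere genes 2 were called by their main probe sets, Ldb3 (1.28) and Smyd1 (1.31), and of 3 developmental myosin genes 0. All values are on the log2 scale. With the control term none of the 13 interactions was called.

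In 52 groups of arrays looked at, 2 held an array far from the others of its group, where chance flags about 1 in 20. Tnnc2 had a normalized log2 value of 14.14 on WT_Aged replicate 4, with the others at 14.37 to 14.45; the same array had the lowest Myh2 value. Tnnt3 had 14.91 on KO_Adult replicate 5, with the other 4 all at 14.98, the value that quantile normalization gives to the brightest probe set of an array.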

How the results depend on the processing

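No paired analysis was possible because the labels give no replicate numbers: the titles hold codes of unstated meaning, and at most 1 stem (the first 4 digits) is common to any 2 groups. Of 1560 values of the 10 genes under an alternative, 1541 kept their direction and side of the threshold, or stayed uncalled. Only Myh2 was called in the main fit, so most of these values counted as kept by staying uncalled, which says little about the calls. Of the rest, 9 lost a call and 10 gained one. In all, 0 reversed a call, and 82 values uncalled both ways changed sign. Leaving out each of the 19 arrays left the counts of called members at 0 to 0 (KO_Adult against WT_Adult, KO_Aged against KO_Adult) and 1 to 1 (the other 3 contrasts), and Myh2 in KO_Aged against WT_Aged at 1.23 to 1.64. With the control term the count was 0 in KO_Aged against WT_Aged, in WT_Aged against WT_Adult and for the interaction, also with the 3′-biased arrays left out and with the intensity-dependent prior. That prior alone (added after seeing the data) called 1 gene in KO_Adult against WT_Adult, 3 in KO_Aged against WT_Aged, 2 in WT_Aged against WT_Adult, 2 in KO_Aged against KO_Adult and 3 for the interaction, and with the control term 1 in KO_Aged against KO_Adult (10.6% of all genes). No normalization gave 2 in WT_Aged against WT_Adult (39.0% of all genes). Of the 12 myosin ratios 8 were called; leaving out an array gave 0 to 9, with 0 for each KO_Aged array, since 3 such arrays allow no smaller exact p. The count was also 0 without normalization (7 with an unadjusted exact permutation p under 0.05), with mean probe sets (5), with the 3′-biased arrays left out (2) and on arrays without spike-in signal (0 of 6). Myh1 over Myh4 in KO_Aged against WT_Aged reversed to 0.24 with mean probe sets. The causes were not tested otherwise.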
